A study of Mus musculus with 9 samples.

Results

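The state of forelimb tendon progenitors at the embryonic stage E12.5 was set against the days on either side, by comparing the mean log2 signal of each gene at E12.5 with the midpoint of its means at E11.5 and E14.5. All 9 arrays of the series entered the comparison, 3 at each stage with the letters A, B and C as their names, and 11575 of the 18193 genes with a probe set on the array were tested. The cells came from Scx-GFP mouse embryos, in which green fluorescent protein reports expression of Scx. Forelimbs were dissociated with trypsin, and GFP-positive cells were sorted by flow cytometry on either of 2 instruments; the instrument used for each sample is not stated. By the labels, all groups share the reporter and differ in stage alone. Scx itself gave signals between 8692 and 21828 on the 9 arrays. Whether replicates were independent litters is not given in the labels, and p-values measure only the spread between these samples. The sorted population is bulk RNA, in which a change in the share of a cell type cannot be told apart from a change of RNA per cell.

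Scx encodes scleraxis, a basic helix-loop-helix transcription factor that marks the progenitors of tendons and ligaments. In the mouse limb these progenitors lie beneath the ectoderm and between the muscle masses early on, while signals such as Shh from the posterior margin and retinoic acid pattern the bud. They then align between muscle and cartilage and differentiate into collagen-secreting tenocytes, with Mkx and Egr1 as further regulators and Tnmd as a late marker.

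A positive difference means that E12.5 lay above the midpoint. On the log2 scale the difference is 0.5 times the gap between the change of the first interval (E11.5 to E12.5) and that of the second (E12.5 to E14.5), so a gene that changes by equal steps has a difference of 0. The stages are 1 and 2 days apart, and a gene that changes at a constant rate per day would therefore also leave the midpoint. Calls were made at an adjusted p below 0.05 in limma. E12.5 was above the midpoint in 16 genes (0.138% of those tested) and below it in 73 genes (0.631%). At an unadjusted p under 0.05 there were 1315 of the 11575 genes. The median difference over all genes tested was 0.05, with quartiles of -0.10 and 0.17 and a median SE of 0.16. The intervals themselves gave more calls. Between E11.5 and E12.5, 360 genes rose (3.11%) and 51 fell (0.441%), and between E12.5 and E14.5, 1463 rose (12.6%) and 1079 fell (9.32%). Of the 2671 genes called in either interval, most were not called against the midpoint.

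The 89 called genes were sorted by which intervals were called. E12.5 was a peak in 9 genes (0.0778%), higher than both neighbours, and a dip in 4 (0.0346%). In 2 genes there was an early rise (0.0173%) and in 1 an early fall (0.00864%), with a call in the first interval only. A late rise, called in the second interval only, was found in 64 genes (0.553%), and a late fall in 5 (0.0432%). The other 4 rose in both intervals by unequal steps. Against these, 236 genes rose and 24 fell in both intervals without a call against the midpoint, and are referred to as steady. The contrasts share the E12.5 arrays, whose errors enter both intervals with opposite sign. All 89 differences had the same sign within each of the letters A, B and C, which selection on the same arrays favours. The same held for 4679 of the 11226 genes placed in no pattern. Leaving out E12.5 A, B or C in turn left 3, 3 and 2 genes above the midpoint, and without E12.5 C no peak or dip met all of its 3 calls. The filter on low signals, which asked for more than 90.6 in at least 3 arrays, bears on these counts. Of the 89 called genes, 44 passed it through the arrays of 1 stage alone, as did 188 of all 11575 tested. Such a gene was high at that stage by selection. They were 41 late rises (through E14.5), the peaks Rfx4 and BC006965 (through E12.5) and Shh (through E11.5). In the fit of all 18193 genes with no filter, 18 of these 44 genes were called, as were 14 of the other 45.

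**Figure D1:**
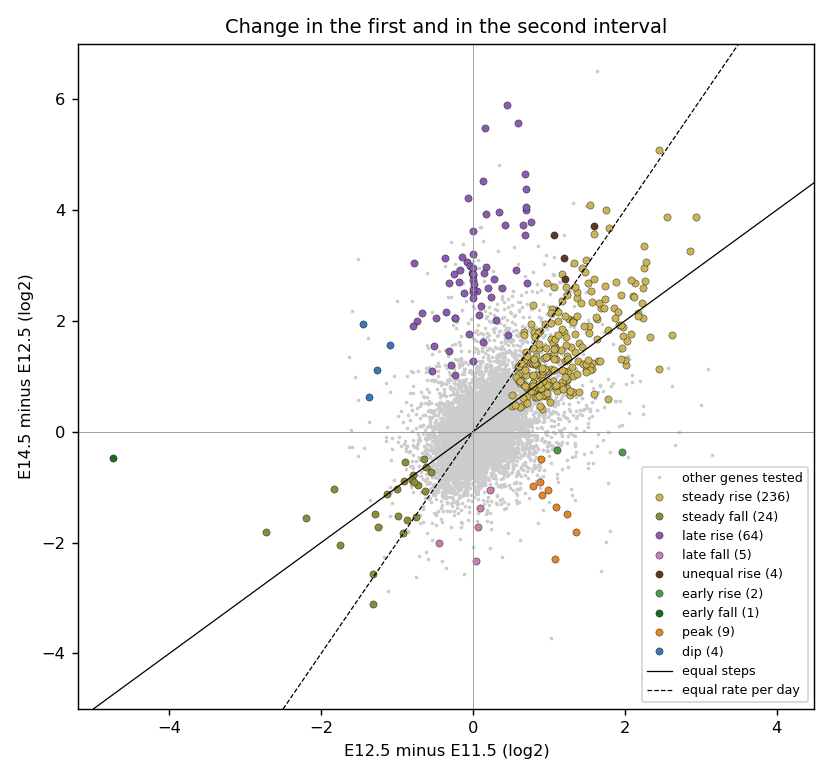
Each point is a gene tested, with the log2 change from E11.5 to E12.5 on the x axis and from E12.5 to E14.5 on the y axis, coloured by pattern with the number of genes in brackets. Late rises stand above 0 on the y axis and near 0 on the x axis, peaks at the lower right and dips at the upper left, while steady genes lie around the solid line of equal steps and the dashed line of an equal rate per day.

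Basic helix-loop-helix factors such as scleraxis bind E-boxes, written CANNTG (N is any base). The RefSeq sequence (GRCm38.p6) of the 250 bases before the start of transcription is shown for 2 genes that peaked at E12.5 and for Dpt, the called gene furthest below the midpoint, with every CANNTG in capitals, 5′ to 3′ on the gene's strand. The windows are chr9:71215539-71215788 for Aldh1a2, chr2:74667975-74668224 for Hoxd13 and chr1:164796413-164796662 for Dpt, all on the + strand.
Aldh1a2: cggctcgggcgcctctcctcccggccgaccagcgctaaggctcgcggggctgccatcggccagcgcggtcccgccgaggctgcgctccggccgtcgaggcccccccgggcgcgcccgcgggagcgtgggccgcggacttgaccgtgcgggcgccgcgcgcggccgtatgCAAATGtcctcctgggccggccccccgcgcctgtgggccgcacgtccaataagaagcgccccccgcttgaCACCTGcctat
Hoxd13: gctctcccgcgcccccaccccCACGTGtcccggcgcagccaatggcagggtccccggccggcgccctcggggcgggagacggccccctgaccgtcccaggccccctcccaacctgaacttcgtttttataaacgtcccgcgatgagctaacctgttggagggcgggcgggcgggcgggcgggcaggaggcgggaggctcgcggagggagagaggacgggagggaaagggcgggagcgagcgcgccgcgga
Dpt: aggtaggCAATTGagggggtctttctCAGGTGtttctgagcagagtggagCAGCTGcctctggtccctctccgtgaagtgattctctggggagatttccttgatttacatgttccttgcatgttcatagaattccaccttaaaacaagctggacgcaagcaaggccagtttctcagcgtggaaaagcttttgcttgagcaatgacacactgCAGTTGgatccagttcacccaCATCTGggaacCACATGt
The Aldh1a2 window holds 2 E-boxes, the Hoxd13 window 1 and the Dpt window 6. The Hoxd13 window also holds TATAAA, in lower case. CANNTG reads the same on both strands, and TATAAA was searched on both. Of all 32851 promoter windows of this length, 66.2% held at least 1 CANNTG and 12.4% a TATAAA. Among the promoters of peaking genes 7 of 12 (58.3%) held CANNTG and 3 of 12 TATAAA, and for late rises, 45 genes of which had a window, 41 of 64 (64.1%) and 9 of 64 (14.1%). These shares describe letters, not binding.

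Among the 9 peaks were a retinoic acid enzyme, a distal Hox gene and a potassium channel subunit with an antisense transcript that overlaps it. Aldh1a2, which encodes the dehydrogenase that makes retinoic acid from retinaldehyde, had signals of 751, 567 and 700.0 at E11.5, 1864, 1522 and 1769 at E12.5, and 345, 625 and 547 at E14.5. The 3 E12.5 arrays stood above all others, without overlap with either neighbour. E12.5 exceeded the midpoint by 1.58 ± 0.19 (log2 difference ± SE, as in all such values below; adjusted p = 0.00749), or 2.99-fold, after a rise of 1.36 ± 0.22 and before a fall from E12.5 of -1.80 ± 0.22. It kept its call in all 22 alternative settings, including each of the 9 in which 1 array was left out. The other tested members of the retinoid list were not called with it. Rxrg, a retinoid X receptor that the list does not hold, was called above the midpoint (0.72 ± 0.13, adjusted p = 0.0456) and is described below. Of 12 genes of the retinoid list tested, Aldh1a2 alone was called above the midpoint and none below, and the median difference was 0.13 against 0.05 over all genes. The share called above among all genes tested was 0.138%. Aldh1a3, which encodes a related dehydrogenase, differed by 0.66 ± 0.20 (adjusted p = 0.212), and Cyp26b1, whose product degrades retinoic acid, by 0.30 ± 0.12 (adjusted p = 0.360).

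Hoxd13, a 5′ gene of the HoxD cluster that acts in the digit-forming end of the limb, had signals of 6099, 4689 and 5685 at E11.5, 9207, 10259 and 10763 at E12.5, and 5554, 5216 and 5301 at E14.5. Every array of the other stages lay below all 3 E12.5 arrays. The difference was 0.90 ± 0.12 (adjusted p = 0.0113), with a rise of 0.88 ± 0.14 matched by a fall of the same size (-0.91 ± 0.14). A further probe set of the gene gave a difference of 1.03. Without E12.5 B or C its adjusted p rose to at most 0.0674, and the call also ended without the letter A arrays and with the mean of its probe sets (up to 0.0777). Of 21 Hox genes tested, Hoxd13 was the member called above the midpoint and none was called below, with a median of 0.26, while 11 fell in the second interval. Among all genes tested, 0.138% were called above the midpoint and 9.32% fell in the second interval. The neighbours of Hoxd13 in the cluster and its paralogue were not called. Hoxd12 was at 0.90 ± 0.26 (adjusted p = 0.197), Hoxd11 at 0.26 ± 0.15 (adjusted p = 0.569), and Hoxa13, the paralogue in the HoxA cluster, at 0.65 ± 0.35 (adjusted p = 0.549).

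Rfx4, which encodes a winged-helix factor of the regulatory factor X family, was furthest above the midpoint, at low signals of 45.4, 43.4 and 76.5 at E11.5, 120.0, 99.5 and 120.0 at E12.5, and 20.6, 23.9 and 19.5 at E14.5. The E12.5 arrays were the highest, and the E14.5 arrays lay at or just above the floor of 22.7 to which lower signals were set. Its difference was 1.69 ± 0.18 (adjusted p = 0.00386). Rfx4 was tested because the E12.5 arrays passed the filter, and in the fit with no filter its adjusted p was 0.0369. With the floor at 90.6, the median of all signals, it was reduced to 0.32 and was not called, nor was Rfx4 called without the letter A arrays or with a trended prior variance.

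Kcnmb4 encodes the beta-4 accessory subunit of the large-conductance calcium-activated potassium channel. Its signals were 1252, 677 and 1069 at E11.5, 2143, 1775 and 1879.6 at E12.5, and 892, 976 and 928 at E14.5, with E12.5 above every other array and a difference of 1.02 ± 0.18 (adjusted p = 0.0439). Kcnmb4os2 is annotated on the opposite strand and overlaps Kcnmb4 at 1 end (chr10:116473163-116474987 against chr10:116417861-116473859). It had signals of 165, 133 and 173 at E11.5, 340.3, 252 and 426 at E12.5, and 99.5, 130.4 and 165 at E14.5 and a difference of 1.23 ± 0.21 (adjusted p = 0.0349). Both were highest at E12.5, and how well the labelling separates the strands was not tested. Kcnmb4 lost its call in 7 of the 9 fits with 1 array left out.

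Shisa2, named after its values were seen, and Shisa3, whose products hold back the maturation of Wnt and FGF receptors in the endoplasmic reticulum, both peaked. Shisa2 had signals of 1686, 1424 and 1664 at E11.5, 3004, 3172 and 2733 at E12.5, and 1953, 2515 and 1922 at E14.5, and Shisa3 of 375, 423 and 292 at E11.5, 865, 621 and 566 at E12.5, and 302, 341 and 273 at E14.5. In both genes all E12.5 arrays were above all others. The differences were 0.69 ± 0.13 (adjusted p = 0.0486) and 1.02 ± 0.17 (adjusted p = 0.0372), and Shisa2 lost its call with the letters as a replicate block (adjusted p = 0.0665). Prr5l, whose product associates with the mTORC2 kinase complex, went from 186, 208 and 235 at E11.5 to 340.0, 373 and 367 at E12.5 and back to 175, 205 and 172 at E14.5. Its difference was 0.88 ± 0.12 (adjusted p = 0.0113), with no overlap between E12.5 and the other stages. The transcript BC006965 had a difference of 1.36 ± 0.21 (adjusted p = 0.0220), passed the filter through its E12.5 arrays alone, and was not called with no filter (adjusted p = 0.0899). Leaving out 1 array ended the call of 7 of the 9 peaks in at least 2 of 9 cases. Prr5l, Hoxd13 and BC006965 lost it only when an E12.5 array was the one left out, and Rfx4 and Aldh1a2 never did.

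Fgf8, the fibroblast growth factor of the apical ectodermal ridge, is named here after its values were seen. Its signals were 16.9, 3.70 and 33.0 at E11.5, 102, 147 and 89.8 at E12.5, and 9.04, 10.8 and 8.98 at E14.5. It was not among the genes tested, because the filter asked for a signal above 90.6 in 3 arrays and 1 E12.5 array fell just short. In the fit with no filter it was a peak, at 2.19 ± 0.19 (adjusted p = 0.0167). Other genes of the ridge and of ectoderm were at or near the floor or without a call. Sp8, a factor of the ridge, ranged from 1.53 to 33.4 over the 9 arrays. The 15 surface ectoderm markers summed to between 1225 and 1439.6 at E11.5, between 1622 and 1794 at E12.5 and between 1898 and 2419 at E14.5. None of the 7 tested was called against the midpoint by limma. At an unadjusted p under 0.05 there were 2 of the 7, and 1315 of all 11575 genes tested. The part of these markers in the result was not tested.

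**Figure D2:**
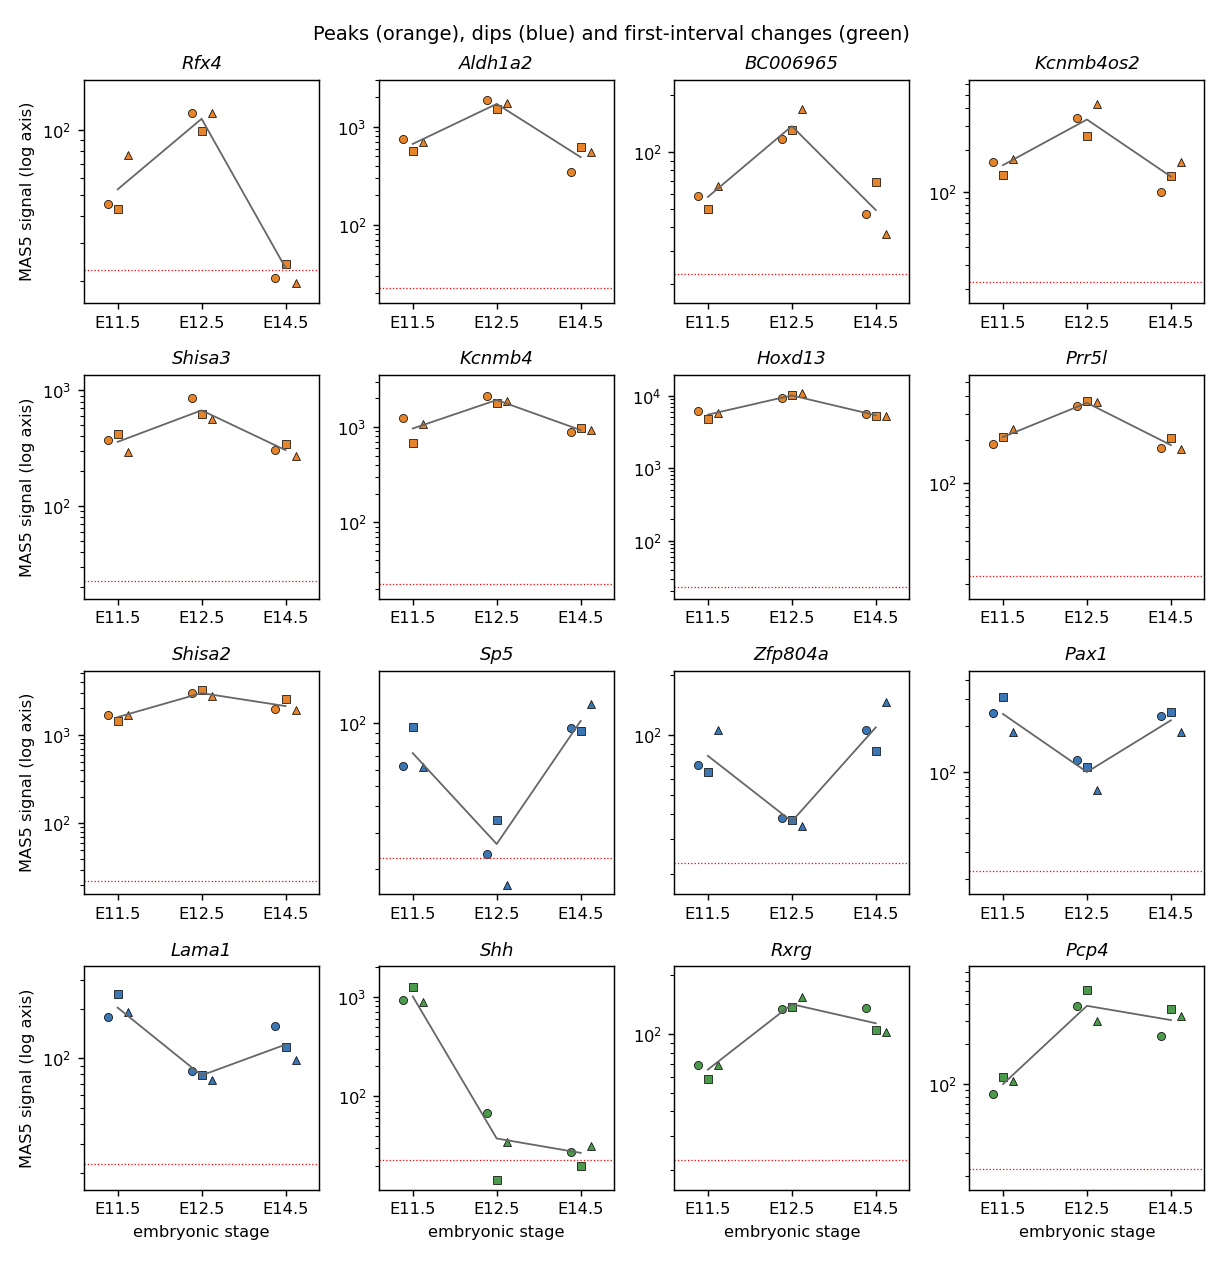
MAS5 signal of the 9 peaks (orange), 4 dips (blue) and 3 genes that changed in the first interval (green) by stage, on a log axis, with circles for letter A, squares for B and triangles for C, a line through the mean of the log2 signals, and the floor of 22.7 dotted. For the orange genes all 3 E12.5 points are higher than the others, and for the blue genes all 3 are lower.

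The dips were the transcription factors Sp5 and Pax1, a zinc finger gene and a laminin chain. Sp5, a Wnt-induced factor of the Sp family, had signals of 62.1, 96.3 and 62.1 at E11.5, 23.8, 34.3 and 16.8 at E12.5, and 94.6, 91.8 and 124 at E14.5. The E12.5 arrays were the lowest, and 1 of them was under the floor. The difference was -1.70 ± 0.20 (adjusted p = 0.00666), and it was not called with the floor at 90.6, where it was -0.10, or without the letter A arrays. Pax1, a paired-box factor of the sclerotome and shoulder girdle, had signals of 244, 309.8 and 182 at E11.5, 121, 108 and 76.4 at E12.5, and 231, 247 and 181 at E14.5, which fell and came back to their earlier range. Its difference was -1.19 ± 0.21 (adjusted p = 0.0400), and 8 of the 9 fits with 1 array left out gave no call, with an adjusted p of up to 0.148. Lama1, the alpha-1 chain of basement membrane laminin, had signals of 178, 246 and 190.3 at E11.5, 83.2, 79.0 and 74.0 at E12.5, and 157, 116 and 96.9 at E14.5 and a difference of -0.99 ± 0.17 (adjusted p = 0.0389). Its E14.5 arrays stayed below all E11.5 arrays. The call was lost in 6 of the 9 fits with 1 array left out, with an adjusted p of up to 0.157. Zfp804a was at -1.33 ± 0.21 (adjusted p = 0.0221), from signals under 150 throughout, and lost its call in the 3 fits without an E12.5 array. With the letters as a block the dips numbered 8, including all 4 of these.

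Sp5 was the member of the limb patterning list that was called, 1 below and none above of 32 tested, with a list median of 0.12. In the Wnt list 1 of 34 was called below, Dkk1, and none above, with a median of -0.04. Over all genes tested, 0.631% were called below the midpoint. Rspo2, which encodes a secreted amplifier of Wnt signalling, is named after its values were seen. Its signals were 605, 1313 and 467 at E11.5, 261, 247 and 192 at E12.5, and 515, 829.9 and 489 at E14.5, with E12.5 below all other arrays and E11.5 B far above A and C. The difference of -1.50 ± 0.31 missed the threshold (adjusted p = 0.0745, and 0.0213 with the letters as a block).

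Shh had the largest change of the first interval among the called genes. This ligand of the posterior limb margin had signals of 930.4, 1240.4 and 885 at E11.5, 68.5, 14.4 and 34.5 at E12.5, and 27.3, 19.9 and 31.8 at E14.5. All E11.5 arrays were far above the later ones, with E12.5 B and E14.5 B under the floor. Signal fell by 4.74 ± 0.35 on the log2 scale in the first interval (adjusted p = 0.000562) and the second interval was not called, at -0.48 ± 0.35. E12.5 was thus below the midpoint, at -2.13 ± 0.30 (adjusted p = 0.0144), while in the fit without E12.5 C the adjusted p was 0.0709. Shh was also not called with the lower floor, with no filter or with probe sets averaged (adjusted p up to 0.0875).

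The other genes of the hedgehog pathway were not called. Of 12 tested, Shh was called below and none above, and the median difference was -0.10. Among all genes tested the share called below was 0.631%. Ptch1, the Shh receptor and a target of the pathway, had signals of 4932, 6399.5 and 4034 at E11.5, 4181, 4478 and 4427 at E12.5, and 6500.1, 4429 and 4276 at E14.5 with overlapping groups, a difference of -0.20 ± 0.18 and an adjusted p of 0.742. Gli1, a transcriptional target, was at 0.06 ± 0.17 (adjusted p = 0.935). Hand2, a factor acting upstream of Shh in the posterior bud, was at 0.62 ± 0.16 (adjusted p = 0.149), and Grem1, the BMP antagonist that relays Shh to the ridge, at -0.47 ± 0.20 (adjusted p = 0.40). A p above the threshold does not show that these genes were at their midpoint.

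Early rises were found for Pcp4, which encodes a calmodulin-binding peptide, and Rxrg, the retinoid X receptor gamma. Pcp4 had signals of 83.7, 112 and 106 at E11.5, 385, 508 and 301 at E12.5, and 231, 370.4 and 327 at E14.5, with every E11.5 array below every later one. Rxrg had signals of 69.4, 58.7 and 69.2 at E11.5, 134, 138 and 155 at E12.5, and 135, 105 and 103 at E14.5, with the same separation. The differences were 1.16 ± 0.20 (adjusted p = 0.0433) and 0.72 ± 0.13 (adjusted p = 0.0456). Rxrg was not called with the letters as a block (adjusted p = 0.0531), and each call was lost in most fits with 1 array left out, 9 of 9 for Pcp4 and 8 of 9 for Rxrg. Irx1 and Irx3, homeobox genes of one family, and Gdf5, a joint-forming BMP ligand, are named after their values were seen. Irx1 rose by 2.72 ± 0.39 in the first interval, Gdf5 rose by 1.78 ± 0.34 and Irx3 changed by -1.37 ± 0.18, all called. None of them was called against the midpoint (adjusted p = 0.128, 0.0843 and 0.0683).

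In 5 genes a fall was called in the second interval only. Prdm16, a zinc finger regulator with a PR domain, had signals of 3312, 2964 and 2820.3 at E11.5, 3078, 3262 and 3161 at E12.5, and 1188, 1071 and 702 at E14.5. The first 2 stages overlapped, and all E14.5 arrays were below them. Its difference was 0.89 ± 0.16 (adjusted p = 0.0486). Cbln1, a secreted organiser of synapses, was at 1.19 ± 0.21, Car14, a membrane carbonic anhydrase whose E12.5 arrays were already below all E11.5 arrays, at 0.78 ± 0.14, Tagln3 at 0.74 ± 0.12 and AA388235 at 0.64 ± 0.12, with adjusted p between 0.0274 and 0.0456. With the letters as a block the late falls numbered 8, without Car14 (adjusted p = 0.0528) and AA388235 (adjusted p = 0.0619). With 1 array left out, Prdm16 and Cbln1 lost their calls in 7 of 9 fits, Car14 and AA388235 in 8 and Tagln3 in 5. The 3 other probe sets of Prdm16 gave 0.48 to 0.71.

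Late rises made up 64 of the 89 called genes. Their median change was 0.00 in the first interval and 2.75 in the second, and the median difference from the midpoint was -1.39. The calls that define the pattern favour these values. In all 64 the E14.5 arrays lay above those of E12.5, as the rule of calling favours. In 12 the arrays of E11.5 and E12.5 did not overlap, as was so in 2436 of the 11226 genes placed in no pattern. In 20 of the 64 genes all 3 arrays of a stage were at the floor, 14 at E11.5, 14 at E12.5 and 8 at both. For these the size of the difference is measured from the floor and depends on it, and the 8 at the floor at both stages have a first change of 0 by construction. The remaining 44 had a signal above the floor in at least 1 array of each stage. With the letters as a replicate block 50 of the 64 were called. Among the 14 that were not are Ecrg4 (adjusted p = 0.0580), Col5a3 (0.0704), Cpa3 (0.0562), Ahr (0.0611), Tfap2b (0.0512) and Itgb1 (0.0557), described next.

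The called genes furthest below the midpoint were Dpt, Ccn3, Ecrg4, Abca8a and Steap4. All of them, and Abi3bp and Mfap5, passed the filter through the E14.5 arrays alone, and with no filter Dpt (adjusted p = 0.0253) and Abi3bp (0.0461) were called but Ccn3 (0.0543), Ecrg4 (0.128), Abca8a (0.0651) and Steap4 (0.0828) were not. Dpt, dermatopontin, a matrix protein, had signals of 33.3, 17.6 and 3.59 at E11.5, 21.3, 45.1 and 42.7 at E12.5, and 2582, 1872 and 1893 at E14.5. The arrays of the first 2 stages overlapped around the floor, and E14.5 was far above them, with a difference of -2.72 ± 0.24 (adjusted p = 0.00170). With the floor lowered to the 10th percentile of signals Dpt was not called (adjusted p = 0.116). Abi3bp, a secreted matrix protein, had signals of 30.5, 67.1 and 45.8 at E11.5, 61.5, 90.4 and 69.3 at E12.5, and 1771, 1647 and 2087 at E14.5 and a difference of -1.98 ± 0.23 (adjusted p = 0.00666). Ccn3, a matricellular protein of the CCN family, was at -2.66 ± 0.32, and Ecrg4, a secreted peptide precursor, at -2.49 ± 0.40. The transporter Abca8a was at -2.20 ± 0.28 and the metalloreductase Steap4 at -2.14 ± 0.29. Mfap5, a microfibril component, was at -1.81 ± 0.28, and Matn2, matrilin-2, at -1.43 ± 0.19. The thrombospondins fell under different patterns by these calls. Thbs4 went from 68.0, 135 and 88.0 at E11.5 and 114, 138 and 252 at E12.5 to 2227, 2223 and 2118 at E14.5 (-1.51 ± 0.27, adjusted p = 0.0439), whereas Thbs2 rose in both intervals, by 1.07 ± 0.22 and then 3.55 ± 0.22, and was one of the 4 unequal rises (-1.24 ± 0.19, adjusted p = 0.0220).

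Col1a1, the alpha-1 chain of type I collagen, had signals of 921, 1211 and 1242 at E11.5, 1646, 1979.6 and 1891 at E12.5, and 14420.2, 9908 and 11620.4 at E14.5. E14.5 was above all earlier arrays, and E12.5 above all of E11.5, but that first step of 0.72 ± 0.18 was not called (adjusted p = 0.0678). The difference was -0.99 ± 0.16 (adjusted p = 0.0248) and was lost in 6 of the 9 fits with 1 array left out, with an adjusted p of up to 0.131. Col1a2, the partner chain, was already high at E11.5, with signals of 14558, 19754 and 17086 at E11.5, 18164, 18719 and 22859.6 at E12.5, and 29867, 27963 and 37616 at E14.5. Its difference was -0.23 ± 0.15 (adjusted p = 0.634). The 2 other probe sets of Col1a2 gave -0.55 and -0.51, and the 1 other probe set of Col1a1 gave -1.52. Of 12 tendon collagens tested, Col1a1 and Col5a3 (-1.20 ± 0.21) were called below the midpoint and none above, the median was -0.46, and all 12 rose in the second interval. Of 22 tendon proteoglycans and matricellular genes 3 were called below and none above, with a median of -0.47, and of 14 connective tissue fibroblast markers 3 and none, with a median of -0.34; Dpt is in both lists. Over all genes tested the median was 0.05, with 0.631% called below the midpoint and 12.6% rising in the second interval. In these lists Col5a3, Dpt and Mfap5 passed the filter through the E14.5 arrays alone.

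Other late rises encode surface proteins, signals and regulators; of those described, Fap, Cav1, Itgb1, Ahr, Nr3c2 and Tfap2b, like Matn2 above, were chosen after their values were seen. Fap, a serine protease of activated fibroblasts, had signals of 378, 478 and 512 at E11.5, 319, 481 and 359 at E12.5, and 2786, 2520.0 and 2899 at E14.5. The groups at E11.5 and E12.5 overlapped, and E14.5 was above both, with a difference of -1.55 ± 0.16 (adjusted p = 0.00287). Igf1, insulin-like growth factor 1, had signals of 3307, 3462 and 2993 at E11.5, 2884, 2549 and 2221 at E12.5, and 11045, 11700.0 and 11165 at E14.5. Its E12.5 arrays were all below the E11.5 arrays, at -0.36 ± 0.13 with no call, before the rise of 2.16 ± 0.13. The difference of -1.26 ± 0.12 (adjusted p = 0.00197) was called in all 22 alternative settings. Cd44, the hyaluronan receptor, was at -1.84 ± 0.24, Ntrk3, the neurotrophin-3 receptor, at -1.88 ± 0.20, Cav1, a caveolar coat protein, at -1.65 ± 0.22, and Nrp1, a receptor for class 3 semaphorins, at -0.74 ± 0.12. Of these, Ntrk3 passed the filter through the E14.5 arrays alone. Itgb1, the integrin beta-1 chain shared by collagen and laminin receptors, was at -0.63 ± 0.11 (adjusted p = 0.0427), while its 2 other probe sets gave -0.40 and -0.25. Its call was lost in each of the 9 fits with 1 array left out.

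Dkk1, a secreted Wnt inhibitor, had signals of 131, 208 and 167 at E11.5, 107, 81.6 and 100.3 at E12.5, and 431, 316 and 338 at E14.5. E12.5 was the lowest stage without overlap, yet the first step of -0.79 ± 0.20 was not called (adjusted p = 0.0733), which placed it with the late rises at -1.35 ± 0.17 (adjusted p = 0.0104). Among regulators, Ahr, the aryl hydrocarbon receptor, was at -1.53 ± 0.27, Nr3c2, the mineralocorticoid receptor, at -1.11 ± 0.19, and Tfap2b, an AP-2 factor, at -1.03 ± 0.16. Nr3c2 passed the filter through the E14.5 arrays alone. With 1 array left out, the calls of Ahr, Nr3c2 and Tfap2b were lost in 8, 7 and 5 of 9 fits. In the IGF list 1 of 14 tested genes was called below the midpoint, in the guidance list 1 of 33 and in the joint interzone list 1 of 13, which are Igf1, Nrp1 and Cd44, and none above. The share called below among all genes tested was 0.631%. The medians of the IGF, guidance and joint interzone lists were -0.11, -0.09 and 0.01, against 0.05 over all genes.

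**Figure D3:**
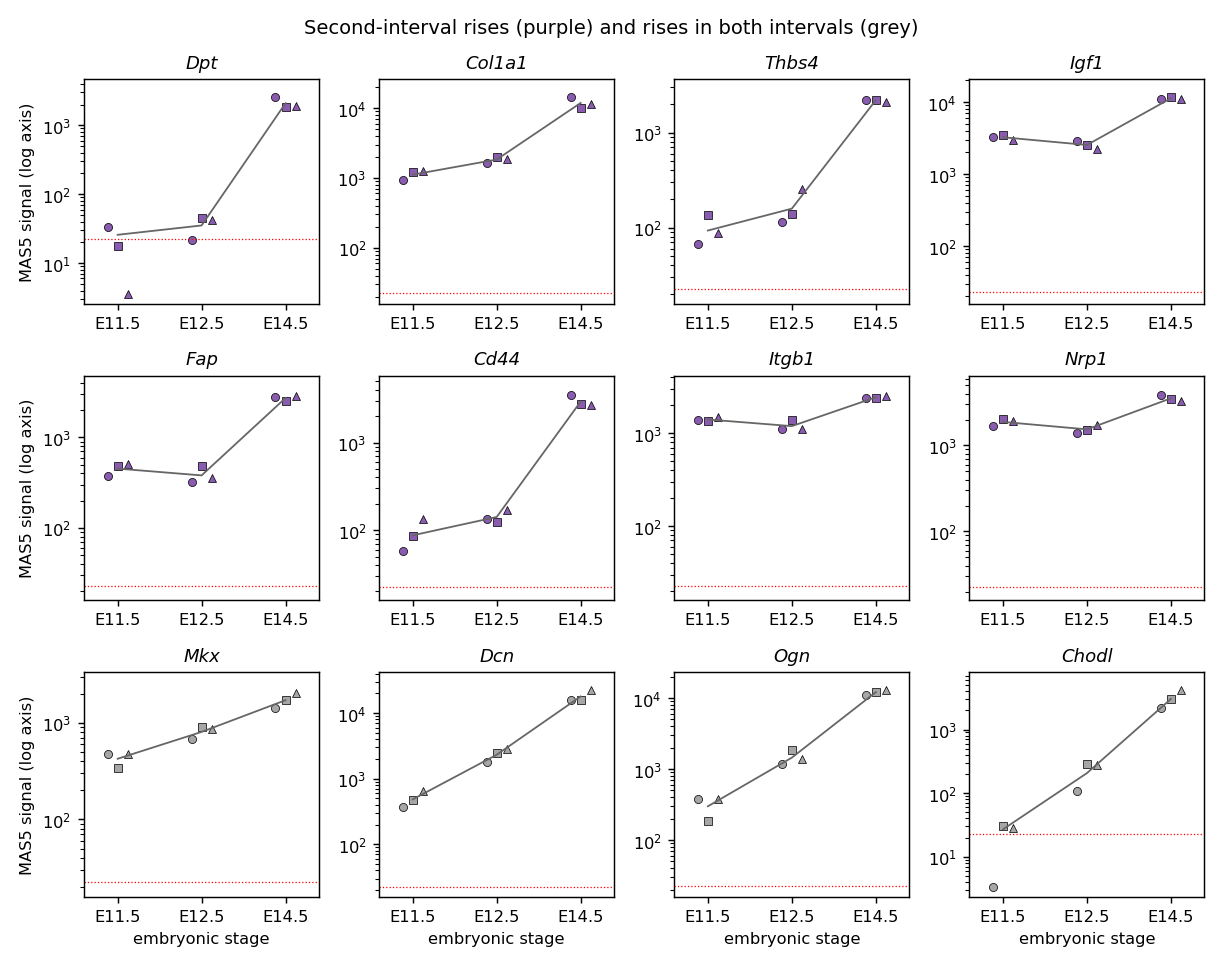
MAS5 signal by stage of 8 late rises (purple) and 4 steady rises (grey) on a log axis, with circles for letter A, squares for B and triangles for C, a line through the mean of the log2 signals, and the floor of 22.7 dotted. The purple genes are higher in all E14.5 arrays than in any earlier one, while the grey genes climb in both intervals.

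Some late risers are markers of other cell types. Cma1 and Cpa3, proteases of mast cell granules, and Srgn, the granule proteoglycan serglycin, were near or below the floor until E12.5. They were chosen after their values were seen and passed the filter through E14.5 alone. Srgn had signals of 2.23, 4.19 and 2.26 at E11.5, 2.89, 4.45 and 2.87 at E12.5, and 192, 228 and 212 at E14.5, and Cma1 of 18.7, 5.97 and 5.92 at E11.5, 4.69, 3.59 and 12.4 at E12.5, and 186, 179 and 125 at E14.5. Their differences were -1.61 ± 0.10 and -1.42 ± 0.14, with -1.66 ± 0.30 for Cpa3. A list of 11 mast cell markers was drawn up after these values were seen. Its summed signal was 693 to 745 at E11.5, 587 to 871 at E12.5 and 1298 to 1704 at E14.5. The list holds Cma1, Cpa3 and Srgn themselves, so their rise enters this sum. Among its other members, Kit had signals of 505, 522 and 449 at E11.5 and 317, 318 and 326 at E14.5. Hdc had 88.4, 165 and 47.2 at E14.5, above its earlier arrays, while Tpsb2, Tpsab1 and Ms4a2 reached at most 53.8 on any array. Of 5 list members tested, 3 were called. Kit and Gata2 were not, and Fcer1a, a chain of the mast cell IgE receptor, was at the floor on every array. Prph, peripherin, an intermediate filament of peripheral neurons, was at -1.29 ± 0.10, the 1 called of 10 nerve and glial markers tested, whose list summed to 2213 to 2446, 3177 to 3327 and 4539 to 5263 at the 3 stages in turn. The median difference of the nerve and glial list was 0.15, against 0.05 over all genes tested, so Prph lay on the other side from most of it. Prph also passed the filter through the E14.5 arrays alone. Cd34, found on endothelium and fibroblasts, was an unequal rise at -1.06 ± 0.20, the 1 called of 7 endothelial markers tested, with list sums of 899 to 1337, 1694 to 2059.6 and 3881 to 4111. Over all genes tested, 0.631% were called below the midpoint. The part of other cell types in the result was not tested.

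The steady genes included central tendon genes. Mkx, a homeobox regulator of tendon differentiation, had signals of 473, 344 and 470.5 at E11.5, 676, 896 and 860.5 at E12.5, and 1418, 1738 and 2039 at E14.5. The stages did not overlap, with steps of 0.92 ± 0.19 and 1.09 ± 0.19 and a difference from the midpoint of -0.08 ± 0.17 (adjusted p = 0.896). Dcn and Ogn were likewise chosen after their values were seen. Dcn, decorin, rose by 2.26 ± 0.25 and 2.95 ± 0.25, with a difference of -0.35 ± 0.22, and Ogn, osteoglycin, by 2.28 ± 0.28 and 3.06 ± 0.28, with -0.39 ± 0.24. Chodl, chondrolectin, rose by 2.94 ± 0.38 and 3.87 ± 0.38, from signals that were at or near the floor at E11.5. Aspn, asporin, had the largest rise from E11.5 to E14.5 among the steady genes and lay at -1.32 ± 0.28 without a call (adjusted p = 0.0762).

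Steady falls included genes known from early embryos. Igdcc3 fell from 2658, 3294 and 1486 to 444, 301 and 334 and then to 69.0, 126 and 117. Arid3b, a DNA-binding protein, fell by 1.32 ± 0.21 and then fell by 3.11 ± 0.21, to the floor in 2 of 3 E14.5 arrays. Trim71, an RNA-binding let-7 target, fell by 1.32 ± 0.18 and then fell by 2.56 ± 0.18, and Sall4, a zinc finger factor of limb and stem cells, fell by 1.75 ± 0.28 and then fell by 2.04 ± 0.28. The differences were -0.46 ± 0.28 for Igdcc3, 0.89 ± 0.18 for Arid3b, 0.62 ± 0.16 for Trim71 and 0.15 ± 0.24 for Sall4, none called. Of 8 tested genes of the Lin28 and let-7 list, 3 were steady falls and 7 fell in the second interval, against 0.207% and 9.32% of all genes tested. None of the 8 was called against the midpoint by limma, and the median difference was 0.33. At an unadjusted p under 0.05 there were 3 of the 8, and 1315 of all 11575 genes tested.

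Of the tendon genes named whatever their values, Scx, Egr1 and Tnmd were not called against the midpoint. Scx, on which the sort rests, had signals of 14811, 21375 and 21828 at E11.5, 17214, 16654 and 16100.5 at E12.5, and 9811, 8692 and 14952 at E14.5, with a difference of 0.21 ± 0.19 (adjusted p = 0.741). Egr1 had signals of 15290.4, 1004 and 2213 at E11.5, 19279, 12428 and 6203 at E12.5, and 24733, 20231 and 16610.4 at E14.5, which spread over more than a 10-fold range at E11.5, and its difference of 0.49 ± 0.72 had the widest SE of these genes. Tnmd, tenomodulin, had signals of 42.0, 14.4 and 7.80 at E11.5, 30.9, 129 and 163 at E12.5, and 9398, 6005 and 8797 at E14.5. E14.5 was above all earlier arrays, by 6.52 ± 0.55, but the difference of -2.44 ± 0.48 missed the threshold (adjusted p = 0.0580), with E12.5 A near the floor and B and C above 100. Tnmd was called in 5 of 22 alternative settings, namely the higher floor, the stricter filter, quantile normalization, median centring and array weights, and its difference ranged from -2.90 to -1.08 over all of them. Of 9 tendon transcription factors tested none was called by limma, with a median of 0.21. At an unadjusted p under 0.05 there was 1 of the 9, and 1315 of all 11575 genes tested.

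Lists without a call included the cell cycle, cartilage, muscle and immediate early genes. Of 22 mitosis genes none was called against the midpoint by limma (7 at an unadjusted p under 0.05), the median was 0.33, and 17 fell in the second interval and none in the first. Of 22 DNA replication genes none was called (4 unadjusted), with a median of 0.21 and 14 falls in the second interval. Over all genes tested, 9.32% fell in the second interval and 0.441% in the first, and 1315 of 11575 had an unadjusted p under 0.05 against the midpoint. Cartilage markers had the highest median among the lists of at least 8 tested genes, 0.52 over 20 genes with no call, none at an unadjusted p under 0.05 either. Their summed signal was 19889 to 25059.6 at E11.5, 35339 to 41525 at E12.5 and 14989 to 117961 at E14.5, so the 3 E14.5 arrays spanned the sums of both earlier stages. Sox9, the master factor of cartilage, had signals of 2625, 2203 and 2404 at E11.5, 3174, 2558 and 2802 at E12.5, and 2435, 1211 and 582 at E14.5 and a difference of 0.74 ± 0.35 (adjusted p = 0.483). Among 25 skeletal muscle markers tested the median was 0.24 with no call (6 unadjusted), and Myog, a muscle differentiation factor, was at -0.28 ± 0.23 (adjusted p = 0.705). The 22 immediate early genes had a median of -0.24 and no call, adjusted or unadjusted. In all, the 41 lists held 741 genes, of which 617 were tested.

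**Figure D4:**
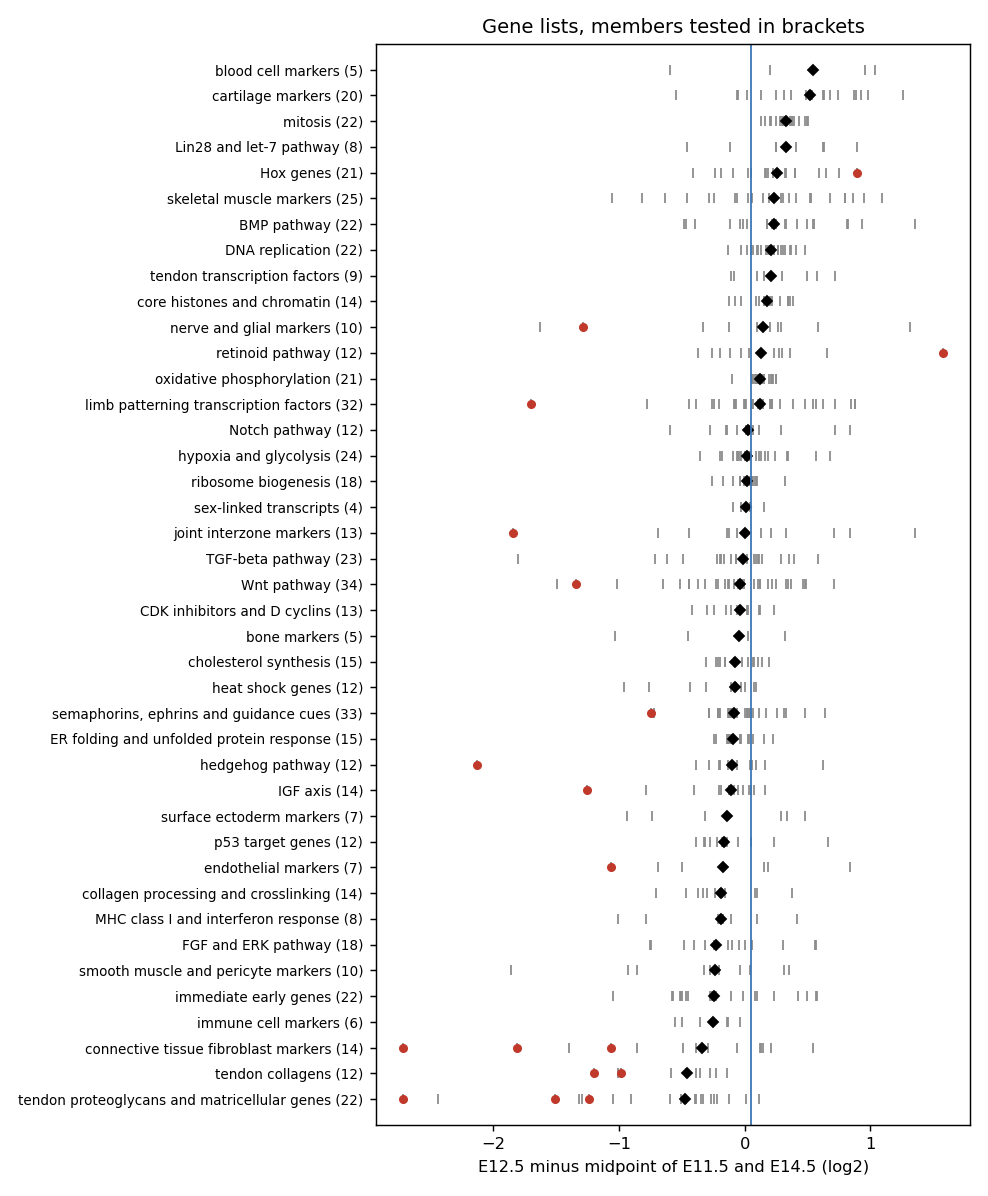
Difference of E12.5 from the midpoint (log2, x axis) for the tested members of each gene list (grey ticks), with called members as red points, the list median as a black diamond and the median of all 11575 genes as a blue line at 0.05. Called members lie to the left in the matrix and fibroblast lists at the bottom, while the mitosis, DNA replication and cartilage lists have medians to the right and no red point.

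The uneven spacing of the stages was examined with another reference point. Against the value interpolated in days, which weights E11.5 by 2 and E14.5 by 1, E12.5 was higher in 7 genes and lower in 17. Of the 89 genes, 23 were called on this measure too and all 89 kept their sign. These were 4 of 9 peaks (Rfx4, Aldh1a2, Hoxd13 and Prr5l), 2 of 4 dips (Sp5 and Lama1), both early rises, Shh and 14 of 64 late rises, with none of the 5 late falls or 4 unequal rises. The shares were not compared by a test. Dpt stayed called (adjusted p = 0.0409), as did Fap (0.0393), Igf1 (0.0224) and Dkk1 (0.0455), whereas Col1a1 (0.522) and Thbs4 (0.495) did not, all adjusted p.

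**Figure D5:**
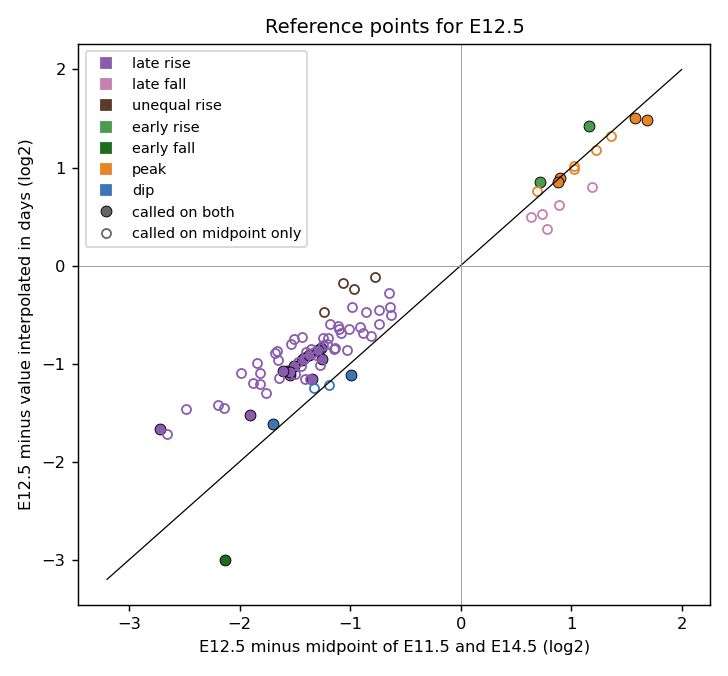
Difference of E12.5 from the midpoint (x axis) and from the value interpolated in days (y axis), both log2, for the 89 genes called on the midpoint, coloured by pattern, with filled points for the 23 called on both measures and the line of equal values. Late rises lie above the line and so nearer to 0 on the y axis, while Shh lies below it at -3.00.

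Median signals of the arrays ranged from 68.7 to 118, the log2 ratio of 3′ to 5′ Gapdh control probe sets from -0.48 to -0.27, and 0.121% to 1.32% of tested genes were at the floor. No pair of arrays held identical values. The letter A arrays of all stages stood apart on the second principal component (11.1% of variance, at 20.6 to 25.8 against -25.0 to -4.78 for the others), and without them 3 genes were called above the midpoint and 25 below, on 2 arrays a stage.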

How the data were processed

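GFP-positive forelimb cells were profiled on 9 Affymetrix Mouse Genome 430 2.0 arrays. The deposited values are intensities, 1 MAS5 signal per probe set and array, which the submitters' processing notes trace to Affymetrix Expression Console 1.1. They are linear, from 0.0409 to 45906.5, with a trimmed mean of 500 in each array. They were not normalized further here. Among 45101 probe sets, 34945 carry a single symbol, 932 carry several, 9160 are unnamed here and 64 are controls. Each gene was read from the probe set whose mean log2 signal was highest, and from one with the suffix _x_at only where it had no other.

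Signals below 22.7, the 25th percentile, were set to that floor before log2 was taken, and genes above 90.6, the median, in at least 3 arrays were tested. One limma 3.58.1 fit in R 4.3.3 with a mean per stage (6 residual degrees of freedom) gave the contrasts, two-sided, with Benjamini-Hochberg adjustment over all 11575 genes. The procedure was tested on simulated data. The number of arrays limits the precision.

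The genes named are the 8 furthest above and below the midpoint, the 8 first of each pattern, up to 4 called members of each list, and Shh, Tnmd, Egr1, Mkx, Scx, Sox9, Myog, Col1a1 and Col1a2; a subset is printed. The comparison, lists and rule were chosen with earlier results of these data known. Every other gene was named after its values were seen, which includes the list members given for comparison without a call (Aldh1a3, Cyp26b1, Hoxd11, Hoxd12, Hoxa13, Ptch1, Gli1, Hand2, Grem1). Promoter windows are from RefSeq.

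Array letters were checked as pairs by correlating deviations from the stage means across genes. For letters A, B and C, r was 0.520, 0.133 and 0.332 between E12.5 and E11.5, 0.310, 0.121 and 0.289 between E12.5 and E14.5, and 0.313, -0.00516 and 0.238 between E11.5 and E14.5. All pairs with E12.5 exceeded 0.1, so the fit with the letter as a replicate block is given beside results it changes. Alternatives changed the floor, filter, normalization, probe set, prior variance, array weights, a 3′ to 5′ covariate, the reference point and the arrays used.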

Additional observations from a re-analysis of the deposited data

How the results depend on the processing

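All 89 genes called against the midpoint kept their sign under every alternative that tested them, and none reversed, while the number of calls depended on the settings. Counts are given in the order above the midpoint, below it, peak, dip, early rise, early fall, late rise and late fall, and were 16, 73, 9, 4, 2, 1, 64 and 5. They became 42, 178, 13, 2, 6, 6, 155 and 23 with the floor at the 50th percentile of signals, and 5, 21, 5, 2, 0, 0, 17 and 0 with the floor at the 10th. They were 15, 40, 7, 2, 0, 0, 37 and 8 with no filter, and 14, 54, 8, 1, 0, 2, 36 and 6 with a filter at the 75th percentile. Quantile normalization gave 21, 89, 8, 4, 0, 1, 76 and 13, and median centring 14, 86, 5, 6, 1, 2, 73 and 8. The mean of all probe sets of a gene gave 5, 38, 2, 2, 0, 0, 35 and 3, a trended and robust prior 18, 41, 9, 1, 1, 2, 31 and 8, and array weights 49, 129, 17, 8, 10, 2, 104 and 21. The 3′ to 5′ Gapdh covariate gave 22, 74, 7, 1, 2, 2, 63 and 13, and interpolation in days 7, 17, 4, 2, 2, 1, 14 and 0. The cause of these changes was not tested. Where arrays or genes were left out, the fit also held fewer of them, and the part of that was not tested either. With the letters as a replicate block the counts were 21, 78, 10, 8, 3, 1, 60 and 8, and 71 of the 89 genes were called. Besides the genes named with their blocked value and 14 late rises, the block ended no call. Without the letter A arrays they were 3, 25, 1, 3, 1, 1, 20 and 1.

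Leaving out each array in turn gave 2 to 13 genes above the midpoint, 27 to 60 below, 0 to 8 peaks, 0 to 4 dips, 0 to 3 early rises, 0 to 2 early falls, 22 to 54 late rises and 1 to 7 late falls. The lowest counts below the midpoint, 27, 30 and 37, came without E12.5 A, B and C. Low signals near the floor limit the size of the differences, and an alternative chosen after seeing the data, leaving out the late rises with all arrays of a stage at the floor, left 44 of 64.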
